A study of Mus musculus with 2 samples.

Results

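The Notch pathway was described through 10 genes, namely the receptors Notch1, Notch2 and Notch3, the ligands Dll1, Dll3 and Jag1, the DNA-binding factor Rbpj, and the targets Hes1, Hes5 and Hey1. They were chosen by name, as gene symbols in the deposited tables, and all 10 were found among 21896 genes. The RNA came from the germinal layers of the mouse cortex at E13.5, the ventricular zone and subventricular zone (VZ–SVZ), on a C57/BL6 background. It was sequenced in 1 library of Rcor2fl/fl embryos, called the control here, and 1 of Rcor2cko embryos. Rcor2 is a subunit of CoREST-type complexes and works with the demethylase LSD1 to repress genes. Both genotypes carry floxed Rcor2 alleles, and in Rcor2cko embryos Cre driven by Nestin, a gene of neural progenitors, deletes Rcor2 in the neural lineage. The labels do not say whether the control embryos carried the Cre transgene, nor how many embryos went into a library. By the study's definition, Rcor2fl/fl embryos with Nestin-driven Cre are Rcor2cko, and genotyping identified the 2 classes. Samples of E15.5 were not analysed here. With 1 library per genotype no difference has a replicate check, so that each comparison is one of these 2 libraries and no p-value is given.

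Levels are FPKM (fragments divided by transcript length and by the number mapped), and the transcript rows of a gene were summed. The steps between low FPKM values gave scaling totals of 18841070 fragments for the control and 25481460 for Rcor2cko. Rcor2 itself, summed over all its exons, was at 90.6 FPKM in the control and 55.7 FPKM in Rcor2cko, a value that includes exons outside the deleted part. The libraries also stood apart in genes unrelated to Notch. Xist, the RNA that silences an X chromosome in female cells, was at 177 and 0.109 FPKM. Eif2s3y, a gene of the Y chromosome, was listed at 0 and at 19.8 FPKM. These are the values of a female control and a male Rcor2cko library, so that sex and genotype cannot be told apart here. Ttr, a gene of the choroid plexus, was listed at 0 and at 57.8 FPKM.

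Notch signalling works between touching cells. A Delta or Jagged ligand on one cell binds a Notch receptor on its neighbour, the receptor is cleaved, and its intracellular domain joins Rbpj on DNA to switch on Hes and Hey genes. In the embryonic cortex this keeps radial glia in the progenitor state, because Hes proteins repress the proneural genes that drive neuronal differentiation and that also drive Delta ligands. Newborn neurons and intermediate progenitors thus present Delta to the radial glia around them.

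Promoter sequences are shown because the targets are defined by Rbpj binding to DNA. They also set the ligand with the largest ratio between the libraries, among the ligands of the 10 genes, beside a target. RefSeq promoters on GRCm38.p6 were matched for 8 of the 10 genes, at 10 transcription starts, and not for Hes1 and Hey1. In the 250 bases before each start, the core TGGGAA, which Rbpj binds, was searched on both strands. It was found before the Hes5 start and before both Rbpj starts, 3 of the 10 starts and 2 of the 8 matched genes. Of 32851 promoters of the same length, 21.6% hold it. Hes5 had the core at 226 and at 82 bases before the start, on opposite strands. The first Rbpj start had it at 149 and 65 bases before the start. The windows of the Rbpj starts overlap, and the match at 205 bases before the second start is the one at 65 bases before the first. A match of these letters is a description of the window and not a binding site. The sequences run 5′ to 3′ on the strand of the gene, with the core in capitals. Hes5 lies at chr4:154960673-154960922 on the plus strand, Rbpj at chr5:53590096-53590345 on the plus strand and Jag1 at chr2:137116521-137116770 on the minus strand.
Hes5: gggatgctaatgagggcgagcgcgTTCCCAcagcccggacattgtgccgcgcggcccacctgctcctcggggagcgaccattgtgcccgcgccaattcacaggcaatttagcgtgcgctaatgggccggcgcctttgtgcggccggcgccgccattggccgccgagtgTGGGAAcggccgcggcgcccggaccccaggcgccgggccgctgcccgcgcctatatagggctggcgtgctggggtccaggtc
Rbpj: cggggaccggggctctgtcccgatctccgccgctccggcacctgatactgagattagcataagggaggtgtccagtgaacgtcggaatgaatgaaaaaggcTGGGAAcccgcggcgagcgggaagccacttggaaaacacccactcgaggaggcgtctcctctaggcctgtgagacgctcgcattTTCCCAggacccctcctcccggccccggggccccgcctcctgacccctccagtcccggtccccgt
Jag1: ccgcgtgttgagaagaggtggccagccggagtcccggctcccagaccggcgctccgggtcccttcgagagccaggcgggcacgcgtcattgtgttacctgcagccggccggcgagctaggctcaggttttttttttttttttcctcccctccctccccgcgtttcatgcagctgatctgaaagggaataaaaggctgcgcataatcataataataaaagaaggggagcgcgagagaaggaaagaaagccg

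The letters searched next were those that Hes and Hey factors bind. The E-box CACGTG was in none of the 10 windows, and 6.02% of all promoters hold it. The N-box CACNAG was in the windows of Notch1, Notch2 and Notch3, with 1, 1 and 2 matches, and 36.7% of all promoters hold it. Neither the Dll1 windows nor those of Dll3 and Jag1 held any of the 3 motifs.

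All 10 genes were expressed above 1 FPKM in both libraries, in the same broad order. In the control library Rbpj stood highest at 32.6 FPKM, followed by Notch1 at 19.9, Hey1 at 17.0, Dll1 at 16.1, Notch2 at 14.2, Hes1 at 12.5 and Hes5 at 11.9 FPKM. Notch3 at 6.88, Dll3 at 3.69 and Jag1 at 1.67 FPKM were the lowest. Taking the 95% FPKM intervals of the files, each of Notch1, Hey1, Dll1, Notch2, Hes1 and Hes5 overlapped its neighbour in this order, whereas Rbpj, Notch3, Dll3 and Jag1 were separated from the gene next to them. In the Rcor2cko library Rbpj was again highest and Jag1 again lowest, but the interval of Jag1 overlapped that of Dll3, and that of Hes1 overlapped that of Notch3. Hey1 and Dll1 exchanged places between the libraries, as did Hes1 and Hes5, in both cases among genes with overlapping intervals.

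**Figure D1:**
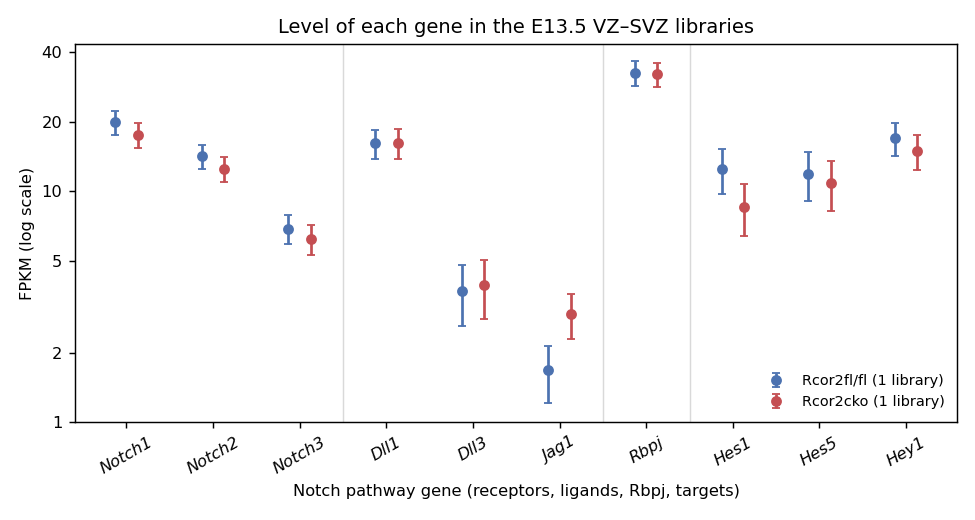
FPKM of the 10 genes (vertical axis, log scale) in the control (blue) and the Rcor2cko library (red), grouped as receptors, ligands, Rbpj and targets. Bars are the 95% FPKM intervals of the files. The bars of the 2 libraries are apart for Jag1 and overlap for the other 9 genes.

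The 3 receptors were slightly lower in the Rcor2cko library. Notch1, the main Notch receptor of cortical progenitors, lies on the minus strand of chromosome 2 (mm9, as for all positions of genes given next) from 26313423 to 26372183, with 34 exons in its longest transcript. It was at 19.9 FPKM in the control and 17.5 FPKM in Rcor2cko, from 3489 and 4148 recovered fragments. Its log2 ratio, taken as (FPKM + 0.1) in Rcor2cko over the control, was -0.18, and the 95% exact (Clopper-Pearson) interval of the fragment ratio ran from -0.25 to -0.12. These intervals cover counting error only. Notch1 was thus lower by more than the counting error, although the FPKM intervals of the files, from 17.5 to 22.4 and from 15.4 to 19.7, overlapped.

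Notch2, a second receptor of the ventricular zone, lies on chromosome 3 from 97817461 to 97954290 on the plus strand, also with 34 exons. It was at 14.2 and 12.5 FPKM, from 2750 and 3270 fragments, and its log2 ratio of -0.18 had an interval from -0.26 to -0.11. Notch3, known for its role in pericytes and vascular smooth muscle as well as in progenitors, lies on chromosome 17 from 32257765 to 32303825 on the minus strand, with 33 exons. It was at 6.88 and 6.23 FPKM, from 1005 and 1228 fragments, a log2 ratio of -0.14 with an interval from -0.27 to -0.02. The receptors had nearly the same ratio, and the make-up of the receptor pool was accordingly close in the 2 libraries. Notch1 made up 48.6% of the summed receptor FPKM in the control and 48.4% in Rcor2cko, Notch2 34.6% and 34.4%, and Notch3 16.8% and 17.2%. The summed level itself was 41.0 and 36.2 FPKM. For scale, 611 genes had a mean of at least 5 FPKM and a transcript of at least 7000 nt, like the receptors. Their median log2 ratio was -0.05, with a standard deviation of 0.44. Of all 11777 genes with at least 1 FPKM in either library, 18.4% had a lower log2 ratio than Notch1. The same share was 18.5% for Notch2 and 25.4% for Notch3.

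Among the ligands Jag1 was higher in the Rcor2cko library, whereas Dll1 and Dll3 were nearly level. Jag1, a Jagged-type ligand known from vessels and sensory organs, lies on chromosome 2 from 136907192 to 136942380 on the minus strand, with 26 exons. It was at 1.67 FPKM in the control and 2.94 FPKM in Rcor2cko, from 161 and 382 fragments. The FPKM intervals of the files, from 1.21 to 2.14 and from 2.29 to 3.60, did not overlap. The log2 ratio was 0.78, or 1.71-fold, and the fragment ratio of 0.81 had an exact interval from 0.54 to 1.09. The lower bound lies just under 1.5-fold, which is 0.58 on this scale. Of the 11777 genes that reached 1 FPKM in either library, 278 (2.36%) had a higher log2 ratio than Jag1. With a pseudocount of 1 in place of 0.1 the log2 ratio of Jag1 was 0.56, which is under 1.5-fold.

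Dll1, the Delta ligand that neurogenic cells present to radial glia, lies on chromosome 17 from 15504318 to 15513836 on the minus strand, with 11 exons. It was at 16.1 and 16.2 FPKM, from 982 and 1332 fragments. Its log2 ratio of 0.01 had an exact interval from -0.11 to 0.13, so that a 1.5-fold difference in either direction lay outside the counting error. Dll3, a divergent Delta protein that acts inside the cell and dampens Notch signalling, lies on chromosome 7 from 29076673 to 29087257 on the minus strand, with 9 exons. It was at 3.69 and 3.92 FPKM from only 137 and 196 fragments, a log2 ratio of 0.08 with a wider interval from -0.24 to 0.41. The interval of Jag1 did not overlap those of Dll1 and Dll3. Dll1 made up 75.0% of the summed FPKM of these 3 ligands in the control and 70.2% in Rcor2cko, and Dll3 17.2% and 17.0%. The share of Jag1 was 7.79% and 12.8%, a difference of 4.96 percentage points with a half-width of 3.61 from the FPKM intervals.

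Rbpj, the factor through which the cleaved receptors act on DNA and which represses the same genes when no receptor domain is bound, lies on chromosome 5 from 53947018 to 54048684 on the plus strand, with 11 exons. It was at 32.6 and 32.1 FPKM, a log2 ratio of -0.02. Rbpj has 3 RefSeq transcripts in the control table, of which the one of 5420 nt carried 99.1% of the FPKM, and the others were at 0.292 FPKM and listed at 0. Fragments could not be recovered for a gene with several transcripts, and the interval derived from the FPKM intervals of the files ran from -0.27 to 0.23.

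The FPKM of all 3 targets was lower in Rcor2cko, that of Hes1 most. Hes1, a repressor that holds proneural genes down in radial glia, lies on chromosome 16 from 30064470 to 30067882 on the plus strand, with 4 exons. It was at 12.5 FPKM in the control and 8.57 FPKM in Rcor2cko, from 295 and 273 fragments. The log2 ratio was -0.53, or 1.45-fold lower, with an exact interval of the fragment ratio from -0.78 to -0.30. Hes1 therefore lay inside 1.5-fold, while the interval reached past it. Only 269 of the 11777 genes had a lower log2 ratio. The FPKM intervals of the files, from 9.73 to 15.2 and from 6.40 to 10.7, overlapped.

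Hes5, the Notch target most tied to neural progenitors, lies on chromosome 4 from 154335032 to 154336480 on the plus strand, with 3 exons. It was at 11.9 and 10.8 FPKM, from 242 and 296 fragments, a log2 ratio of -0.13 with an interval from -0.39 to 0.12. A difference in Hes5 was therefore not detectable at this depth. Hey1, a related repressor expressed in progenitors and in endothelium, lies on chromosome 3 from 8663362 to 8667039 on the minus strand, with 5 exons. It was at 17.0 and 15.0 FPKM, from 644 and 765 fragments, a log2 ratio of -0.18 with an interval from -0.34 to -0.03. The interval of Hes1 overlapped those of both Hes5 and Hey1. Such an overlap does not decide whether the ratios differ by more than counting error, and that difference was not tested. Hes1 made up 30.1% of the summed FPKM of the targets in the control and 24.9% in Rcor2cko, a difference of -5.19 points that is smaller than its half-width of 7.69. Summed over the targets, the level was 41.4 and 34.4 FPKM.

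**Figure D2:**
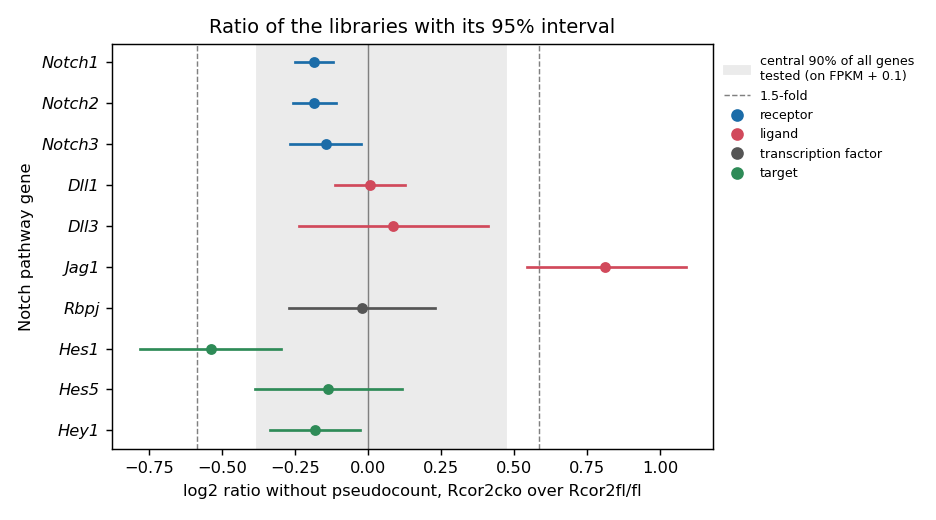
The log2 ratio of Rcor2cko over Rcor2fl/fl without pseudocount (horizontal axis) for each gene, coloured by role. Lines are 95% intervals, exact from recovered fragments for 9 genes and derived from the FPKM intervals of the files for Rbpj, and the grey band holds the central 90% of all genes tested, on (FPKM + 0.1). Jag1, at 0.81, and Hes1, at -0.54, lie outside the band, and the other 8 genes inside it.

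Across the 10 genes, Jag1 alone was past 1.5-fold, and it was higher in Rcor2cko, while 9 lay within 1.5-fold. Of all 11777 genes tested, 5.54% were past 1.5-fold in either direction, 3.79% higher and 1.76% lower. Against this background, 1 of 10 is no result about these genes as a group. The share also depended on level. It was 12.2% of the 3024 genes with a mean from 1 to 5 FPKM, where Jag1 and Dll3 lie, and 1.87% of the 8539 genes with a mean of at least 5 FPKM, where the other 8 genes lie. When the FPKM intervals of the files also had to be apart, Jag1 was still past the fold change, along with 2.56% of all genes. By the exact fragment interval alone, and without further scaling, 6 of the 9 genes with recovered fragments differed between the libraries by more than counting error. They were Notch1, Notch2, Notch3, Jag1, Hes1 and Hey1, against 37.2% of the 8460 genes tested in that way. The upper bounds of Notch3, at -0.02, and Hey1, at -0.03, are smaller in size than the 0.04 shift of all genes under median scaling. Both calls thus depend on the scaling, and neither the count nor the share was taken under another scaling. Notch1 and Notch2 had the most fragments of the 9 genes and the narrowest intervals.

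The log2 ratio was below 0 for 7 of the 10 genes and above 0 for 3. The median of the 10 was -0.14, against -0.03 over all genes tested, of which 57.6% were below 0. Upper quartile scaling moved the median of all genes most among the scalings, by 0.06, and under it Rbpj was at 0.04. The receptors, Hes1, Hes5 and Hey1 stayed below 0, and the 3 ligands above 0, under each scaling tried.

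**Figure D3:**
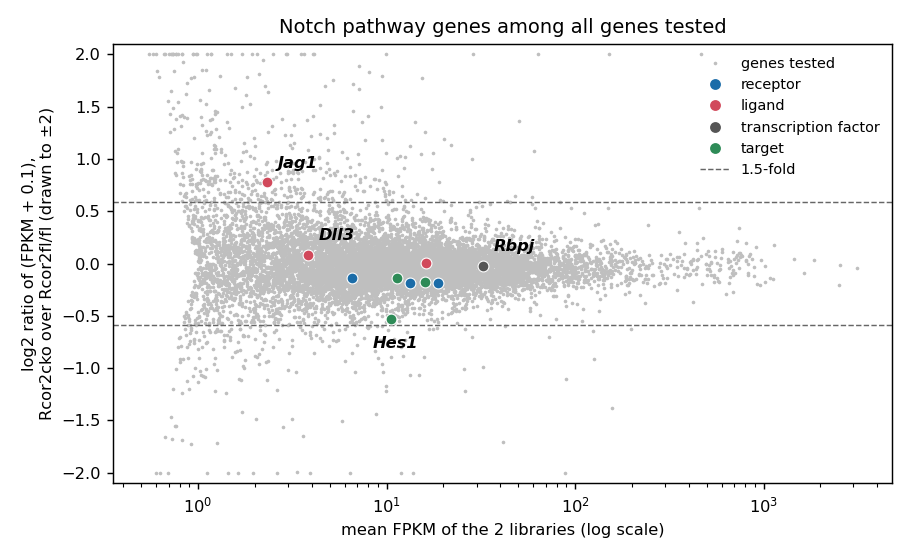
The log2 ratio of Rcor2cko over Rcor2fl/fl, on (FPKM + 0.1), against the mean FPKM of the 2 libraries (log scale) for all genes tested (grey, drawn to ±2) and the 10 Notch pathway genes (coloured by role). Jag1 lies above the upper 1.5-fold line, in the range of low levels where grey points spread most, and Hes1 lies just inside the lower line.

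Another 92 genes of the pathway, in lists chosen by function, were examined in the same way. Of these, 78 reached 1 FPKM in either library. In Rcor2cko 2 of them were higher and 3 lower by more than 1.5-fold, while 73 lay within 1.5-fold. Beside 5.54% of all genes, 5 of 78 is no result about the lists as a group. Their median log2 ratio was -0.08.

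Among the other receptors and ligands, 1 of 5 tested genes was past 1.5-fold. Dner, a transmembrane protein of neurons with Delta-like repeats that has been described as a Notch ligand, was at 12.2 FPKM in the control and 28.1 FPKM in Rcor2cko, from 792 and 2453 fragments. Its log2 ratio of 1.19 had an interval of the fragment ratio from 1.08 to 1.32, and the FPKM intervals of the files were apart. Dner was thus higher than every Notch ligand among the 10 genes in the Rcor2cko library. Jag2, the second Jagged ligand, was at 2.97 and 3.72 FPKM, a log2 ratio of 0.31.

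The genes of receptor cleavage were all within 1.5-fold, 9 of 9 tested. The γ-secretase subunits Psenen, at 41.2 and 40.1 FPKM, and Aph1a, at 29.5 and 27.0 FPKM, were the highest of them. Of 11 tested genes that add sugars to Notch or take up its ligands by endocytosis, 1 was past 1.5-fold. Neurl1a, a ubiquitin ligase of the Neuralized family, was at 1.02 and 1.99 FPKM, a log2 ratio of 0.90 with overlapping FPKM intervals. The highest of this list were Epn1, an adaptor in the endocytosis of ligands, at 45.9 and 41.3 FPKM, and Mfng, a Fringe glycosyltransferase, at 29.0 and 27.2 FPKM. Modulators of the signal were within 1.5-fold in 12 of 12 cases, with Dtx3, a Deltex family member, at 63.1 and 60.9 FPKM and Mgrn1, a ubiquitin ligase, at 28.8 FPKM in both libraries.

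Of 20 tested cofactors of Rbpj and of Hes proteins, Tle4 was past 1.5-fold. Tle4, a Groucho family co-repressor that Hes proteins recruit, was at 22.3 FPKM in the control and 14.5 FPKM in Rcor2cko, from 1834 and 1611 fragments. Its log2 ratio was -0.62, with an interval of the fragment ratio from -0.72 to -0.52, and the FPKM intervals were apart. The highest genes of this list, the co-repressors Hdac2 and Ctbp1, were at 154 and 158 FPKM and at 96.8 and 92.7 FPKM.

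Of the other Hes and Hey genes only 3 of 9 reached 1 FPKM. Hey2, a relative of Hey1, was at 1.41 and 0.640 FPKM, from 62 and 38 fragments, a log2 ratio of -1.03 with an interval of the fragment ratio from -1.76 to -0.53. The FPKM intervals of the files overlapped for Hey2. Hes6, which counteracts Hes1 and is expressed in neurogenic cells, was the highest gene of the family at 61.3 and 67.4 FPKM, a log2 ratio of 0.14. Bhlhe40, a more distant relative, was at 2.82 and 2.86 FPKM.

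Progenitor genes that have been linked to Notch were within 1.5-fold in 9 of 9 tested cases. Fabp7, a lipid-binding protein of radial glia, was the highest of them at 372 and 539 FPKM, a log2 ratio of 0.53, and Id4, an inhibitor of bHLH factors, was at 64.4 and 75.9 FPKM, a ratio of 0.24. The proneural and other genes that Hes proteins hold down were past 1.5-fold in 1 of 11 cases. Neurod4, a neuronal differentiation factor, was at 3.12 and 1.59 FPKM, from 185 and 127 fragments, a log2 ratio of -0.93 with an interval of the fragment ratio from -1.31 to -0.64. Neurog2, the main proneural factor of the cortex, was at 84.3 and 88.0 FPKM, a log2 ratio of 0.06. Hes6 and Mfng belong to this list as well.

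**Figure D4:**
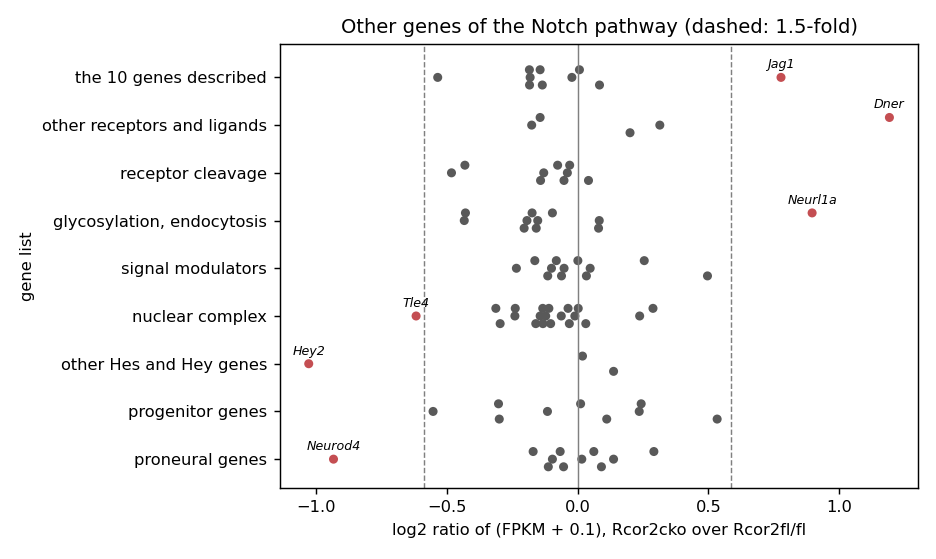
The log2 ratio of Rcor2cko over Rcor2fl/fl, on (FPKM + 0.1), for the 10 genes described and for each list of other pathway genes that reached 1 FPKM in either library; 1 point is 1 gene, Hes6 and Mfng are drawn in 2 lists, and red points are past 1.5-fold. Jag1, Dner and Neurl1a lie to the right and Tle4, Hey2 and Neurod4 to the left.

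Several of the 10 genes are known from more than 1 cell type, and in bulk RNA fewer cells of a type and less RNA per cell cannot be told apart. Summed levels of marker lists were therefore read beside them. Radial glia, the cells in which Notch1, Hes1 and Hes5 act, were represented by 7 markers other than Hes1 and Hes5, with a sum of 866 FPKM in the control and 1019 FPKM in Rcor2cko. All 7 were within 1.5-fold, with a median log2 ratio of 0.06. The higher sum rests on Fabp7, without which the other 6 markers summed to 493 and 480 FPKM. Most of that sum was Vim, at 308 and 303 FPKM. The 8 intermediate progenitor markers summed to 373 and 368 FPKM, with 1 of 8 past 1.5-fold. The 8 neuronal markers found summed to 1064 and 1022 FPKM, with none past 1.5-fold. Tubb3 alone gave 568 and 521 FPKM of the neuronal sum.

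Beside the higher Jag1, other lists differed between the libraries. All 10 ventral telencephalic markers, including Dlx1 and Dlx2, were higher in Rcor2cko by more than 1.5-fold, and their sum was 19.4 and 63.4 FPKM, with Gsx2 and Isl1 listed at 0 in the control. The 7 choroid plexus markers summed to 1.04 and 62.0 FPKM. Ttr accounts for most of that sum, Ttr and Kl were listed at 0 in the control, and 2 of 2 markers reaching 1 FPKM were higher. Of 8 microglial markers 5 were more than 1.5-fold higher, with sums of 20.4 and 30.6 FPKM. Of these 5, the FPKM intervals of the files were apart for Csf1r and overlapped for P2ry12, C1qa, C1qc and Fcrls. For comparison, 5.54% of all genes tested were past 1.5-fold, and 12.2% of those with a mean from 1 to 5 FPKM. The 10 endothelial markers, of vessels in which Jag1, Notch1 and Hey1 are known to be expressed, summed to 40.7 and 44.5 FPKM with none past 1.5-fold. The 8 pericyte markers, read beside Notch3, summed to 19.1 and 24.3 FPKM, with none of 5 tested past 1.5-fold. Of the 12 markers of Cajal-Retzius cells and the cortical hem, 7 were tested and 6 were more than 1.5-fold lower. The 12 markers summed to 54.9 and 24.8 FPKM, of which Reln alone gave 36.5 and 15.6 FPKM. Wnt3a was listed at 0 in the Rcor2cko library. The part of these cells in the values of Jag1, Hes1 and the other Notch pathway genes was not tested.

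On mm9, the annotation places antisense transcripts over Notch1, Notch3, Dll1 and Hes5. Whether fragments were counted by strand is not given in the sources used here, and fragments of these genes and of their antisense transcripts may share a value.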

How the data were processed

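RNA of 1 Rcor2fl/fl and 1 Rcor2cko library was analysed. The authors prepared stranded mRNA libraries, mapped reads to mm9 with TopHat and deposited Cufflinks FPKM values with 95% intervals. The submitters' processing notes name TopHat 1.3.3 and Cufflinks 1.2.0, and the methods of the study name another TopHat version. The Rcor2fl/fl file lists 27641 RefSeq transcripts, the Rcor2cko file 21896 genes.

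Rows were summed per gene, with interval half-widths combined as the root of summed squares. Genes with at least 1 FPKM in 1 library were compared on log2(FPKM + 0.1), which understates the change of low genes, without further scaling, and counted past 1.5-fold. Whole fragments were recovered for 14350 genes (single transcript, 1000 nt or longer, status OK). FPKM times length less a fitted offset (194 and 201 nt) is a multiple of 1 fragment, and 99.3% and 99.4% of values up to 100 fragments lay within 0.1 of a whole number. These steps were tested on data simulated with the same relation between fragments and FPKM. Such a test cannot show that the deposited values follow this relation. Positions are from GENCODE vM1 on NCBIM37 (mm9), counted from 1, and the locus in the files overlapped it for all 10 genes.

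The 10 genes and all lists were chosen with earlier results of these data known. Other genes were named if past 1.5-fold or among the 2 highest of a list by mean FPKM. Alternatives covered the pseudocount, scaling, filter, fold change, row per gene and intervals. Python 3.11.15, numpy 2.4.6, pandas 2.3.3, scipy 1.17.1 and matplotlib 3.10.9 were used.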

Additional observations from a re-analysis of the deposited data

How the results depend on the processing

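The log2 ratio of each of the 10 genes stayed within its 95% interval under every alternative run on it, with Jag1 from 0.56 to 0.84 and Hes1 from -0.54 to -0.47. The median of the 10 also moved by less than their spread. The shares within each role were not tried under another setting that could move them, since their genes have 1 row each. Hes1 was past 1.5-fold under none of the alternatives run on it. No paired analysis was possible because each genotype has a single library, so that none could be left out either. The number of the 10 genes past 1.5-fold was 0 with a pseudocount of 1, with a filter of 5 FPKM in either library, which Jag1 does not reach, and above 2-fold. A rule chosen after seeing the data, an exact fragment interval that leaves out a ratio of 1 whatever the fold, held for 6 of them. This rule was applied without further scaling only. Of the other pathway genes, 3 were past 1.5-fold with a pseudocount of 1, 10 with the highest row per gene, 9 without a filter, 2 with 5 FPKM required in either library, 2 above 2-fold and 3 with FPKM intervals apart. Over all genes, against 446 higher and 207 lower, the numbers were 243 and 100 with a pseudocount of 1, 1287 and 672 unfiltered, 139 and 69 with 5 FPKM required in either library, 262 and 128 with 1 FPKM required in both, 162 and 62 above 2-fold, and 220 and 81 with FPKM intervals apart. Using the highest row gave 1214 higher, and it lowers the Rcor2fl/fl library alone, whose rows are transcripts. Stricter filters and folds leave fewer genes by construction. A larger pseudocount does so as well, since it shrinks the log2 ratio by construction, most at low FPKM. Depth limits Dll3 and Jag1 most, with 137 and 161 fragments in the Rcor2fl/fl library.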
